A study of Mus musculus with 12 samples.

Results

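The regions described here are stretches of hepatocyte chromatin that were strongly accessible in every mouse of an ATAC-seq series, whatever its genotype or diet. A region belonged to them when a peak covered it in all 12 libraries and when the deposited fold enrichment, a peak's height over the local background of its own library, was at least 10 in each of the 12. In all, 10585 of 292576 merged regions met this rule and are called common open regions below. They made up 17.2% of the 61659 regions held in all 12 peak lists. They were chosen by these fold enrichments, so their levels are given as a description with no test.

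In ATAC-seq a transposase inserts sequencing adapters where DNA is not covered by nucleosomes, and the height of a peak reflects how often it does so. The most constant accessible sites of mammalian cells are the starts of broadly used genes, many of them in CpG islands, together with sites bound by insulator proteins such as CTCF. Enhancers are known to be more variable between cell types and states. Fbxl5 encodes an F-box protein that marks iron regulatory protein IRP2 for degradation, and its loss in hepatocytes raises cellular iron. DDC (3,5-diethoxycarbonyl-1,4-dihydrocollidine) is a porphyrinogenic compound that causes cholestatic liver injury.

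Each of 4 groups held 3 mice: Fbxl5-deleted mice (Alb-Cre/FBXL5F/F) on 0.1% DDC, Fbxl5-deleted mice on a standard diet, floxed controls (FBXL5F/F) on 0.1% DDC and floxed controls on a standard diet, all after 2 weeks of feeding. All 4 groups carried the floxed Fbxl5 alleles, and only the deleted mice carried Cre, which the albumin promoter drives in hepatocytes. Hepatocytes were separated after collagenase perfusion and may come with other liver cells, so a difference in cell make-up cannot be told apart from a difference within hepatocytes. The design asks how accessibility differs between the genotypes in cholestatic liver. A peak at the Fbxl5 gene (chromosome 5, 43781400 to 43782725, mm10) was listed in all 12 libraries at 8.31 to 10.9 and so did not meet the rule. It does not report on the deleted exons.

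The lists held 137004 to 202874 peaks in 10 libraries. The lists of Fbxl5-deleted mice 1 and 3 on the standard diet were longer, with 261938 and 260515 peaks. Library 1 also had the lowest median fold over the common open regions, 13.3, against 15.2 to 18.2 in the other 11 libraries. It held the lowest of the 12 values for 5271 regions (49.8%), and 2690 further regions missed the rule in that library alone. Without it the rule would have taken in 13274 regions.

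Starts of protein-coding genes that lie whole within a common open region are shown first, since 38.5% of the common open regions lay at gene starts. Each line gives 250 bases before and 50 bases from the start, taken from RefSeq (GRCm38.p6), 5′ to 3′ on the gene's strand. Capitals mark exact matches, on either strand, to any of 13 short motifs. The strongest 3 such regions lay at Cep128 (a centriole protein; chr12:91384360-91384659, minus strand), Zim1 (a zinc finger gene; chr7:6696383-6696682, minus strand) and Mcm3 (a subunit of the replicative helicase; chr1:20820263-20820562, minus strand).
Cep128: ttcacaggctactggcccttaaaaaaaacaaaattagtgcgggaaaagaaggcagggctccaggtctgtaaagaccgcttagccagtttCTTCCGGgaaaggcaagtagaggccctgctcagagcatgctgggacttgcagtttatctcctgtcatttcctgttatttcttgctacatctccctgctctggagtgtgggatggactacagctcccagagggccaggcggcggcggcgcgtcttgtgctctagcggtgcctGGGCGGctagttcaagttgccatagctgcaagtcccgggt
Zim1: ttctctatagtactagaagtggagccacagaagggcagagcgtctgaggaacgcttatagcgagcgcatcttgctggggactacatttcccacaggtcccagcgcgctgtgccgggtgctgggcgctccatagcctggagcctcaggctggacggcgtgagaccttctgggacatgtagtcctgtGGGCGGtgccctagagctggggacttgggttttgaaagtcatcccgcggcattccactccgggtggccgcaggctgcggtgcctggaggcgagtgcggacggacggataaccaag
Mcm3: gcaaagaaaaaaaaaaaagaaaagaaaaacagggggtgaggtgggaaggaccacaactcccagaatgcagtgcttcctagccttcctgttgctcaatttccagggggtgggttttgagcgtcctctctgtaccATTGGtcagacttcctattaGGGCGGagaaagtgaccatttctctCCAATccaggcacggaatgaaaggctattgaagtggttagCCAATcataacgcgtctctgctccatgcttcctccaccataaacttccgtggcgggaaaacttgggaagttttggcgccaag
The Cep128 window holds 1 ETS site and 1 GC box, the Zim1 window 1 GC box, and the Mcm3 window 1 GC box and 3 CCAAT boxes. The next pair are the windows with the highest and the lowest ratio of observed to expected CpG, at Cdk11b (a cyclin-dependent kinase; chr4:155624604-155624903, plus strand) and Cyp3a59 (a cytochrome P450 with close paralogs; chr5:146079008-146079307, plus strand).
Cdk11b: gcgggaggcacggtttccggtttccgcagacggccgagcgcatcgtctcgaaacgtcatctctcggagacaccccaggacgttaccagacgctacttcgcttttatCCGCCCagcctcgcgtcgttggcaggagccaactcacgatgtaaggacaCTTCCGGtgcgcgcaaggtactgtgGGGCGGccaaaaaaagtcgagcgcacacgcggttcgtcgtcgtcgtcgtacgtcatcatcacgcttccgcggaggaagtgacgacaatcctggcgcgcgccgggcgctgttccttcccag
Cyp3a59: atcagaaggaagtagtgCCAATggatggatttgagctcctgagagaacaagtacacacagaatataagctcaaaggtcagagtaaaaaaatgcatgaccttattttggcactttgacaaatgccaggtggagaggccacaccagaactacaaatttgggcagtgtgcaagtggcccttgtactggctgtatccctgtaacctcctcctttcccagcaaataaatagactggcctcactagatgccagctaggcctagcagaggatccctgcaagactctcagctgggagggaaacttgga
The Cdk11b window has 42 CpG, a ratio of 1.44, and the Cyp3a59 window has none. Fold enrichment over the 12 libraries was 27.3 to 37.0 at Cep128, 23.5 to 35.0 at Zim1 and 21.8 to 34.6 at Mcm3. It was 11.3 to 17.8 at Cdk11b and 14.9 to 20.7 at Cyp3a59. The folds of the window without a CpG overlapped those of the window richest in CpG.

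Fold enrichment over the common open regions had a geometric mean over 12 libraries of 10.9 to 44.0, with a median of 15.95. The median was 7.43 for the other 51074 regions held in all 12 lists. A region's highest library was a median of 1.53 times its lowest (range 1.11 to 2.93), and for 94.5% of regions it was under 2 times. The regions just inside the threshold included the starts of Tiprl (10.0 to 17.9) and Ago1 (10.0 to 14.2). Those just outside included the starts of Hectd3 (9.99 to 14.4) and Sec16b (9.99 to 14.2).

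**Figure D1:**
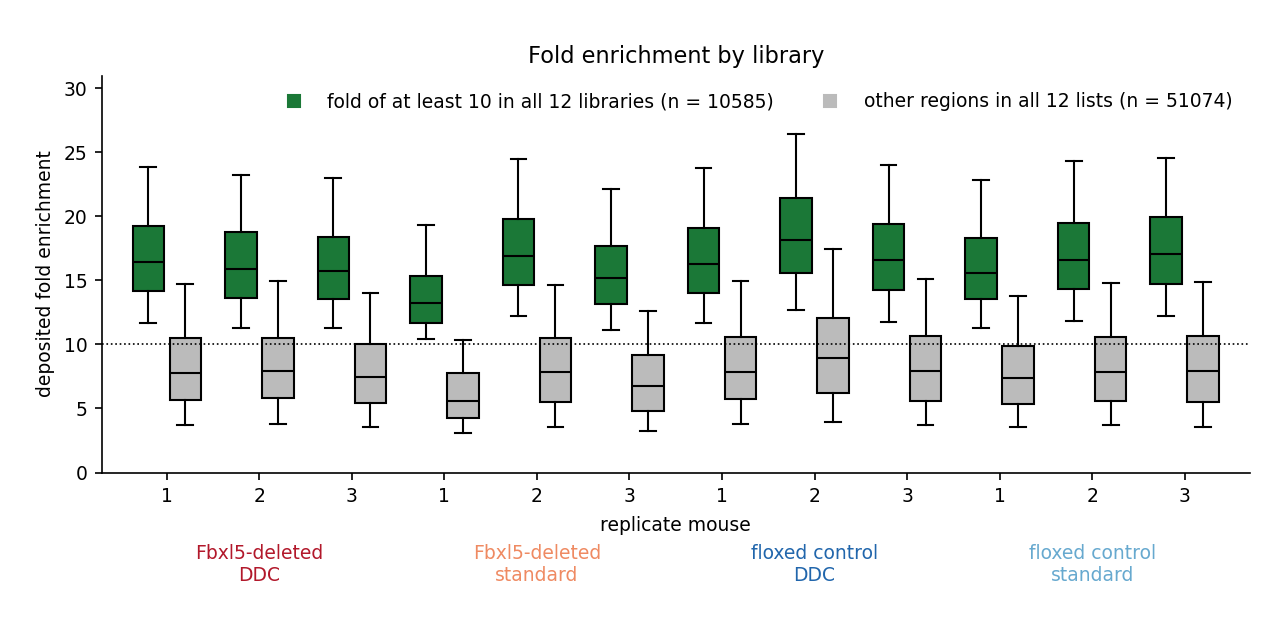
Deposited fold enrichment (y axis) of the common open regions (green, n = 10585) and of the other regions held in all 12 lists (grey, n = 51074), for each of 3 mice in 4 groups. Boxes span the quartiles with the median as a line, whiskers reach the 5th and 95th percentiles, and the dotted line is the minimum of 10; Fbxl5-deleted standard-diet library 1 has the lowest green box, with a median of 13.3.

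The strongest site of all lay 7566 bp from Ric8b, which encodes a chaperone of G protein alpha subunits (chromosome 10, 85025903 to 85026333). Its fold enrichment was 43.4, 41.5 and 44.2 in Fbxl5-deleted mice on DDC, 43.5, 47.8 and 44.1 in Fbxl5-deleted mice on the standard diet, 41.7, 44.4 and 43.4 in floxed controls on DDC, and 44.7, 45.3 and 43.9 in floxed controls on the standard diet. The groups overlapped, and the summits of the 12 peaks lay within 6 bp of each other. The next strongest was 49075 bp from Nfasc, a neuronal adhesion gene (chromosome 1, 132790923 to 132791359), at 33.1 to 39.7 with summits within 9 bp.

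Of the 10 strongest regions, only that of Cep128 lay at a gene start. The other 9 were narrow, 276 to 543 bp. Of these, 4 lay inside genes such as Dnah7b (an axonemal dynein) and Magi2 (a synaptic scaffold protein), and 5 lay 580 to 1029116 bp from the nearest protein-coding gene. One, on chromosome X 314911 bp from Fmr1 (68363350 to 68363625), varied more than the rest. Its values were 44.5, 43.9 and 40.9 in Fbxl5-deleted mice on DDC, 30.96, 33.4 and 27.5 in Fbxl5-deleted mice on the standard diet, 42.6, 46.6 and 40.3 in floxed controls on DDC, and 35.9, 37.6 and 21.8 in floxed controls on the standard diet. All DDC mice lay above all standard-diet mice there, but the diet difference, tested on each region's rank within its library, did not pass (0.15 ± 0.13 in Fbxl5-deleted mice and 0.25 ± 0.13 in floxed controls, log2 ± SE, limma adjusted p = 0.589 and 0.287). The ranks were put on a scale where the few strongest regions of a library share the same top value. Differences among such regions are compressed, so this test cannot decide whether the folds here differed by diet.

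The 5 steadiest regions were all at gene starts. They included Alg10b, a glucosyltransferase of N-glycosylation, Zscan20, a zinc finger gene, Herc2, a ubiquitin ligase, and Snrpa, the A protein of the U1 splicing particle. The remaining region lay at the start of Gm51480 and overlapped the zinc finger gene Zfp788. At Alg10b (chromosome 15, 90223998 to 90224890) the values were 15.5, 16.4 and 14.8 in Fbxl5-deleted mice on DDC, 14.9, 15.95 and 15.04 in Fbxl5-deleted mice on the standard diet, 15.5, 15.4 and 15.8 in floxed controls on DDC, and 15.3, 14.9 and 16.1 in floxed controls on the standard diet. All 4 groups overlapped, and the highest value was 1.1 times the lowest. The 5 regions with the widest spread, 2.81 to 2.93 times, included the start of Ccdc89, a coiled-coil protein. In 4 of the 5 the lowest value belonged to Fbxl5-deleted standard-diet library 1, as at Ccdc89 with 10.6 there, against 21.2 to 30.0 in the other 11.

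Position was not used by the rule. Within 1 kb of an annotated gene start lay 3933 of 10226 common open regions (38.5%), leaving out chromosome 18, for which no starts were used here. The same held for 17.3% of the other regions in all 12 lists, 6.83% of regions in 3 to 11 lists and 4.17% of regions in 1 or 2 lists. These are descriptions without a test, because regions of one genome are not replicates. A median summit within 250 bp of a start was found for 32.6% of common open regions and for 10.7% of the others held in all 12 lists.

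Within the common open regions the strength ran the other way. The weakest 1023 regions, 1 of 10 equal parts by strength, had a geometric mean fold of 10.96 to 13.0, and 50.3% of them lay at gene starts. The strongest 1023, at 20.8 to 44.0, did so in 32.1%, and 9 of the 50 strongest regions did. A weak region meets the minimum of 10 only if it varied little over the 12 libraries, while a strong one can vary more. The part of this limit in the trend was not tested. Of the 6293 common open regions away from a start, 53.9% had their summit inside a protein-coding gene, against 56.4% of the others held in all 12 lists.

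**Figure D2:**
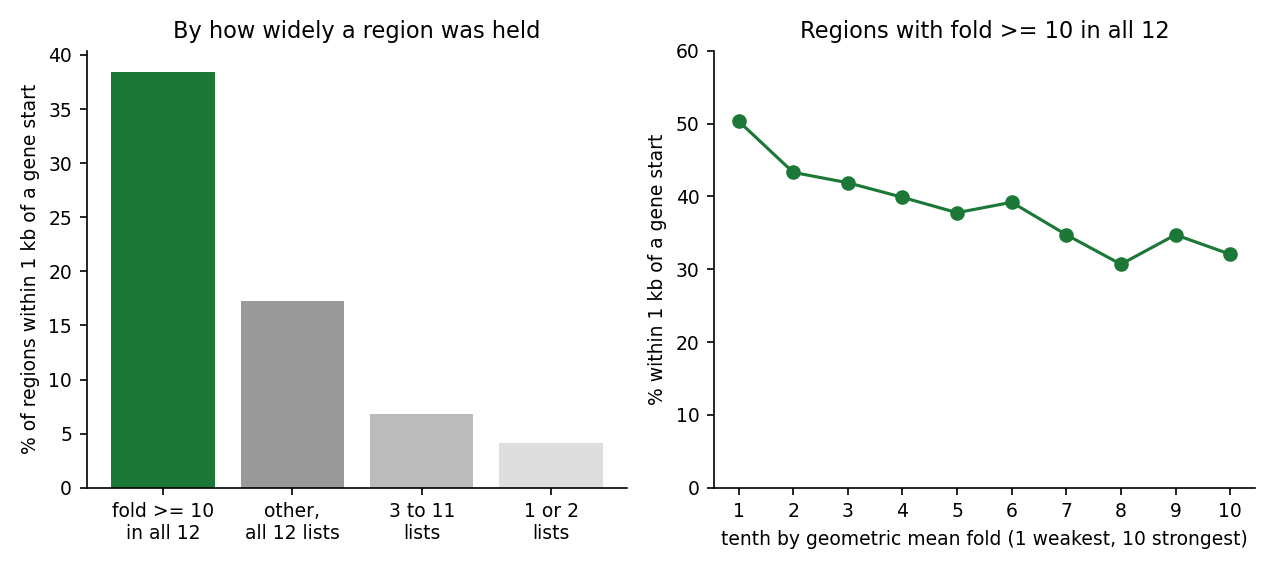
Share of regions within 1 kb of a gene start (y axes, %), on the left by how widely a region was held and on the right over 10 equal parts of the common open regions by geometric mean fold. The share is 38.5% in the common open regions against 4.17% to 17.3% in the other classes, and is 50.3% in the weakest of the 10 parts and 32.1% in the strongest.

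The common open regions were wide, and their summits were mostly close together across libraries. Median peak width was 515 to 598 bp over the 12 libraries, against 304 to 391 bp for the other regions held in all 12 lists, so the ranges over libraries did not overlap. Peaks with 2 or more summits made up 39.6% to 51.8% of them per library, against 16.2% to 28.4%. The strongest summits of the 12 libraries spanned a median of 40 bp per region, against 71 bp. They spanned 50 bp or less in 66.1% of common open regions and in 30.4% of the others, and over 200 bp in 8.30% and 25.5%. Away from gene starts the median span was 39 bp with 5.48% over 200 bp, and at gene starts 43 bp with 12.7% over 200 bp. Higher peaks hold more fragments, and the part of height in how well a summit is placed was not tested.

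Where a common open region held a gene start (3740 regions), the median summit lay 21 bp before the start, with quartiles at 77 bp before and 31 bp after it. In the other regions held in all 12 lists it lay 9 bp before, with quartiles at 81 bp before and 66 bp after. Starts on both strands, as at a divergent gene pair, were found in 679 of 3740 common open regions with a start (18.2%) and in 797 of 6516 others (12.2%).

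Sequence was compared over windows of protein-coding genes that lay whole inside a region. The 3831 windows in common open regions had a median GC content of 62.0% and a median CpG ratio of 0.807, and 83.0% had a ratio of at least 0.6. The 5609 windows in the other regions held in all 12 lists had 64.3%, 0.798 and 76.6%. The 11064 windows in no region had 50.3%, 0.275 and 21.7%. Both classes of accessible start lay closer to each other than to the windows in no region.

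The motif counts differed between the accessible classes. The ETS letters CCGGAAG stood in 26.7% of windows in common open regions, against 15.2% in the other regions held in all 12 lists and 11.7% of all 21012 windows. CCAAT, the NF-Y box, stood in 47.7%, against 34.2% and 38.5% of all windows. The letters ACTACAATT of ZFP143, a zinc finger factor found at housekeeping promoters and chromatin loop anchors, were rare but stood in 1.33%, against 0.267% and 0.514% of all windows. TATAAA, the TATA box, stood in 3.73%, against 6.13% and 12.7% of all windows.

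The GC box GGGCGG of SP and KLF factors was found in like shares, 70.4% against 71.2% (46.6% of all windows). The same was true of the NRF1 letters GCGCATGCG (3.73% against 3.99%; 2.36% of all), of TGACGTCA of the CREB and ATF factors (3.21% against 3.55%; 2.26% of all) and of TCTCGCGAG of ZBTB33 (1.75% against 1.80%; 0.976% of all). AAGATGGCG of YY1 stood in 3.63% against 3.07% (1.83% of all), and the E-box CACGTG in 9.06% against 11.6% (7.91% of all). Among windows with a CpG ratio of at least 0.6, ETS letters stood in 28.9% against 17.3% and CCAAT in 46.5% against 31.6%. Letters of liver and stimulus factors were found in like or lower shares. TGTTTAC of FOXA stood in 2.14% against 2.82% (3.03% of all), CAAAGTCCA of HNF4A in 0.444% against 0.428% (0.457% of all), and TGANTCA of AP-1 in 3.65% against 4.60% (7.04% of all). Both strands were read; letters of the GC box and CCAAT overlapped in 94 of all windows and those of the GC box and ETS in 57. A match is a description of letters and not a bound site.

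Gene lists showed which genes start in such regions. A common open region lay within 1 kb of the start of 4008 of 17274 protein-coding genes (23.2%) and of 680 of 9520 lncRNA genes (7.14%). Genes for basic cell machinery stood above the protein-coding share: 18 of 30 matched mitochondrial ribosomal proteins (60%), 13 of 25 proteasome subunits (52%), 9 of 20 genes of cohesin, CTCF and chromatin organisers (45%) and 12 of 27 splicing factors (44.4%). RNA polymerase II and general factors had 11 of 26 (42.3%), ribosomal proteins 10 of 26 (38.5%), respiratory chain subunits 8 of 25 (32%) and ubiquitous reference genes 4 of 15 (26.7%). A region of any strength held in all 12 lists lay at the start of 10172 of 17274 protein-coding genes (58.9%). Such a region lay at 92% to 100% of the matched starts of these lists. The 23.2% thus includes genes without such a region. Of the 10172 genes with one, 4008 had a common open region at the start. Ribosomal proteins (10 of 26), respiratory chain subunits (8 of 25) and ubiquitous reference genes (4 of 15) did not exceed that share. RNA polymerase II and general factors (11 of 26) were close to it. Mitochondrial ribosomal proteins (18 of 30), proteasome subunits (13 of 23), chromatin organisers (9 of 20) and splicing factors (12 of 26) were above it, with no test.

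The starts named next were among the strongest of their lists, so their high values follow from the rule and this choice. Spread differed between starts of these lists. The highest library was 1.16 times the lowest at Taf10 and 2.1 times at Psma3, a proteasome subunit. The median over all common open regions was 1.53 times. Ndufv1, a subunit of respiratory complex I (chromosome 19, 4012403 to 4013368), lay at 21.0 to 27.7 over the 12 libraries with a geometric mean of 24.1. Taf10, a subunit of general factor TFIID (chromosome 7, 105743669 to 105744739), lay at 22.0 to 25.5. Mrps21, a mitochondrial ribosomal protein, lay at 17.0 to 25.9, and Psma5, a proteasome core subunit, at 18.4 to 23.3. Prpf8, the central protein of the spliceosome, lay at 18.2 to 26.7, and the cohesin release factor Wapl at 13.0 to 16.3. The 4 groups overlapped at Ndufv1, Mrps21 and Psma5. At Taf10, Prpf8 and Wapl the values of floxed controls on DDC did not overlap those of floxed controls on the standard diet, but the differences of −0.14, 0.19 and 0.11 log2 did not pass the test (limma, adjusted p = 0.377, 0.41 and 0.655). At Wapl the Fbxl5-deleted mice on DDC, at 13.8 to 15.6, also did not overlap the floxed controls on DDC, at 16.1 to 16.3, where the rank-based difference was −0.01 ± 0.12 log2 (± SE, limma, adjusted p = 1.0).

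Most starts of genes that define the hepatocyte were accessible in every mouse, but few at this strength. Of 35 matched hepatocyte products, Tdo2 (tryptophan dioxygenase, 12.05 to 17.5) and Abcb11 (the bile salt export pump, 10.98 to 16.1) had a common open region at the start (5.71%), while 31 had some region held in all 12 lists there. Of 17 hepatocyte identity factors, Hnf4a, a nuclear receptor central to the hepatocyte network, had a common open one (5.88%), while 16 had some region held in all 12 lists. Its start (chromosome 2, 163546686 to 163547551) had 12.2, 12.3 and 11.6 in Fbxl5-deleted mice on DDC, 14.2, 13.8 and 10.3 in Fbxl5-deleted mice on the standard diet, 13.4, 11.9 and 13.2 in floxed controls on DDC, and 13.3, 12.3 and 14.1 in floxed controls on the standard diet. All 4 groups overlapped at this start.

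The lists were also counted over a wider stretch, within 20 kb of a gene's span with its start included. A common open region lay there for 62.5% of the hepatocyte identity factors (15 of 24, among them Cebpa, Nr5a2, Prox1 and Nr1h4) and 38.1% of the hepatocyte products, against 47.5% of all protein-coding genes. The 8 lists of basic cell machinery were higher, at 65.0% to 79.4%. Among bile acid genes 2 of 22 matched starts had one, Slc51b (a basolateral bile acid transporter subunit, 16.4 to 24.0) and Abcb11, but 18 of 29 genes had one within 20 kb, with 6 at Atp8b1, a canalicular lipid flippase, and 3 each at Abcb4, the canalicular phospholipid transporter, and Nr1h4, the bile acid receptor FXR.

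The genes nearest to the treatment and the deletion fell on both sides. Heme genes had 7 of 16 matched starts (43.8%). They were led by Blvra, biliverdin reductase (chromosome 2, 127070101 to 127070979), and Cpox, coproporphyrinogen oxidase, at 16.1 to 24.2. Blvra had 27.3, 27.7 and 24.8 in Fbxl5-deleted mice on DDC, 21.1, 27.7 and 27.3 in Fbxl5-deleted mice on the standard diet, 29.3, 29.4 and 26.7 in floxed controls on DDC, and 24.4, 29.2 and 30.0 in floxed controls on the standard diet, with all 4 groups overlapping. Iron genes had 4 of 21 (19.05%): Pcbp2, an iron chaperone that also binds RNA, Nfs1, the cysteine desulfurase of iron-sulfur cluster assembly, Tfrc, the transferrin receptor, and Aco1, iron regulatory protein IRP1. The NRF2 pathway had 2 of 26 (7.69%), Sod2 and Txnrd1, and AP-1 and immediate early genes had 1 of 19 (5.26%), Klf2.

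Starts of marker genes of other liver cells seldom lay in a common open region. None of 9 sinusoidal endothelial, 11 macrophage, 9 stellate or 11 lymphocyte genes had a common open region at the start, and 1 of 8 cholangiocyte genes did, the mucin gene Muc1. Among 29 genes of other organs there was none. A region of any strength in all 12 lists lay at the start of 4 of the 9 endothelial, 2 of the 9 stellate, 4 of the 8 cholangiocyte and none of the macrophage and lymphocyte genes. Within 20 kb of the span, a common open region lay at 10 of 16 endothelial genes (62.5%), 7 of 15 cholangiocyte genes (46.7%), 3 of 14 lymphocyte genes (21.4%), 2 of 14 macrophage genes (14.3%) and 0 of 14 stellate genes, and at 34.3% of the genes of other organs.

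**Figure D3:**
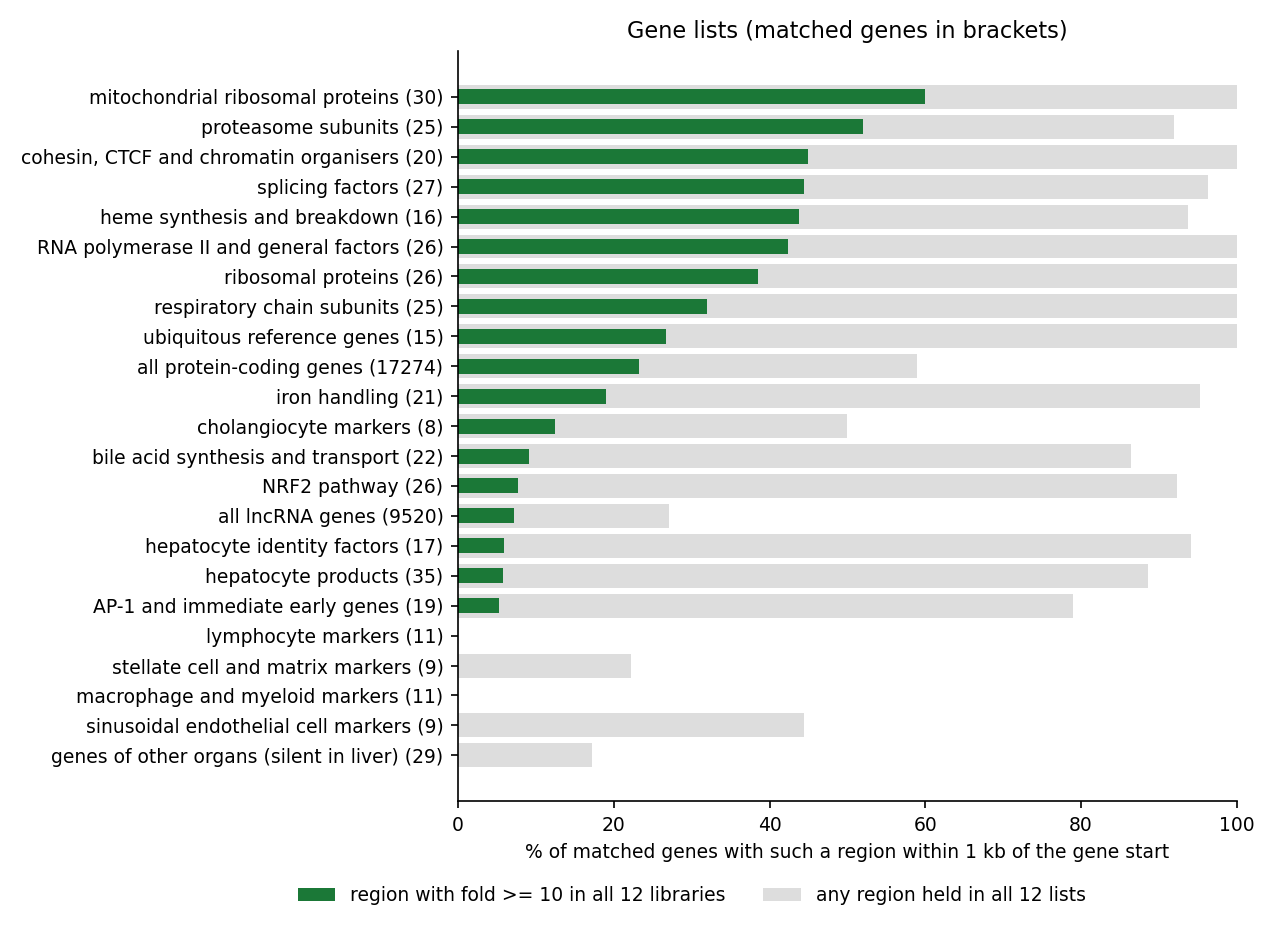
Share of matched genes (x axis, %; number matched in brackets) with a common open region within 1 kb of the start (green) and with any region held in all 12 lists there (grey), by gene list. Mitochondrial ribosomal proteins lead with 60%, while hepatocyte products reach 5.71% in green and 88.6% in grey.

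Along the genome, neighbouring common open regions were a median of 81120 bp apart. Their share of the regions in all 12 lists was 13.9% on chromosome X and 15.1% on chromosome 15, the lowest, and 19.3% on chromosome 7, the highest. The densest run held 10 of them within 100 kb on chromosome 4 (88721744 to 88806295), 9 at gene starts, with a geometric mean fold of 11.6 to 16.9. It covers Klhl9, Ifnz and a row of related predicted genes of the interferon zeta cluster. These genes are near-identical copies, so how reads were shared among them is uncertain.

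Group differences were tested on ranks: each region's fold was replaced by the value its rank has in the mean distribution of the 12 libraries, on a log2 scale, and limma was fitted to all 138502 regions held in at least 3 lists. A region was called at an adjusted p under 0.05, by Benjamini-Hochberg over all regions tested. The minimum of 10 in every library bounds how far a common open region can differ between groups, so the counts below are descriptions. The median within-group SD was 0.14 log2 for common open regions and 0.26 for the other regions held in all 12 lists, and the mean standard error of a diet difference was 0.13. The rule also leaves out regions with a low value in any library, so the smaller SD may follow in part from it.

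No common open region was called between the genotypes. On DDC, limma called none of the 10585 at an adjusted p under 0.05 (lowest 0.302; 431 had an unadjusted p under 0.05), against 0.0% of all regions tested. On the standard diet it also called none (lowest adjusted p 0.165; 701 had an unadjusted p under 0.05), against 0.000722%, which is 1 region. Differences between Fbxl5-deleted mice and floxed controls ran between −0.62 and 0.68 log2 on DDC and between −0.55 and 0.59 on the standard diet. No common open region was called for a difference of the diet effects (limma, lowest adjusted p 0.865, 449 with an unadjusted p under 0.05, against 0.0% of all regions tested). With 3 mice a group these tests do not show that the genotypes were alike. With peaks required to overlap their region by 50% both ways, limma called 9 of 10375 tested common open regions by genotype on the standard diet (0.0867%, against 0.0914% of all regions), 8 on DDC (0.0771%, against 0.192%) and 13 for the difference of the diet effects (0.125%, against 0.0618%).

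Between diets some common open regions moved. In Fbxl5-deleted mice 113 were called on DDC against the standard diet (1.07%, set beside 3.15% of all regions tested). Of these 59 rose and 54 fell, where the percentages of all regions tested were 2.37 and 0.782. In floxed controls 263 were called (2.48%, set beside 7.02%), of which 107 rose and 156 fell, where 4.89% and 2.13% of all regions rose and fell. The called changes had sizes of 0.35 to 0.79 log2 in Fbxl5-deleted mice and 0.28 to 1.11 in floxed controls. The rest lay close together, and 99.2% of all common open regions differed by less than 0.5 log2 in Fbxl5-deleted mice and 98.7% in floxed controls.

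These counts depend on libraries and on scale. In Fbxl5-deleted mice, 9 common open regions were called without standard-diet libraries 1 and 3 (0.085%, against 0.874% of all regions). Leaving out 1 Fbxl5-deleted library gave 56 (standard 1), 47 (standard 3), 48 (DDC 1), 37 (DDC 2) or 65 (DDC 3), shares of 0.35% to 0.614%, against 1.45% to 2.22% of all regions. Leaving out standard 2 gave 122 (1.15%, against 2.68%). With the library's median fold as a covariate 1 was called (0.00945%, against 0.243%). In floxed controls leaving out 1 library gave 157, 123 and 133 (standard 1, 2 and 3), 156 (DDC 1) or 102 (DDC 2), shares of 0.964% to 1.48%, against 3.70% to 4.74% of all regions. Leaving out DDC 3 there gave 178 (1.68%, against 6.08%), and 111 were called with the covariate (1.05%, against 3.19%). That median itself differed by diet. It was 3.67 to 4.50 on the standard diet and 4.48 to 4.96 on DDC in Fbxl5-deleted mice. In floxed controls it was 4.37 to 4.59 and 4.74 to 5.40. Counts with the covariate therefore cannot tell diet apart from this property of the libraries. Without rank mapping, 97 regions rose and 6 fell in Fbxl5-deleted mice (0.973%, against 4.01% of all regions), with a median of 0.19 over all regions. In floxed controls 89 rose and 21 fell (1.04%, against 7.69%), with a median of 0.09. The library with the lowest folds, Fbxl5-deleted standard 1, held the lowest value in 47 of the 59 regions that rose in Fbxl5-deleted mice and in none of the 54 that fell. A rise needs low standard-diet values and a fall needs high ones, so the calls themselves favour this split. It does not show how far the counts rest on that library.

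Fewer of the regions that moved lay at gene starts than of those not called, though the falls in Fbxl5-deleted mice came close. In Fbxl5-deleted mice 3.51% of those that rose (2 of 57, without chromosome 18) and 33.96% of those that fell (18 of 53) lay within 1 kb of a start. This was the case for 38.7% of those not called. In floxed controls the shares were 14.6% (15 of 103) and 11.1% (17 of 153), against 39.1%. Regions that moved were also narrower, with median widths of 671 bp for those that rose and 787 bp for those that fell in Fbxl5-deleted mice (898 bp for those not called), and 701 and 748 bp in floxed controls (900.5 bp). Position and width of called regions among all regions tested were not set beside these. They therefore do not mark out the common open regions.

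Diet differences had like signs in both genotypes, which share no libraries. Of the 59 that rose in Fbxl5-deleted mice, 57 also had a positive difference in floxed controls (median 0.34 log2), and of the 54 that fell, 50 had a negative one (median −0.27). Of the 107 that rose in floxed controls, 101 had a positive difference in Fbxl5-deleted mice (median 0.31), and of the 156 that fell, 149 had a negative one (median −0.22). Called in both were 38 regions, all in the same direction, of which 25 rose. They made up 33.6% of the calls in Fbxl5-deleted mice and 14.4% of those in floxed controls. The same counts over all regions tested were not set beside these, so they do not mark out the common open regions.

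**Figure D4:**
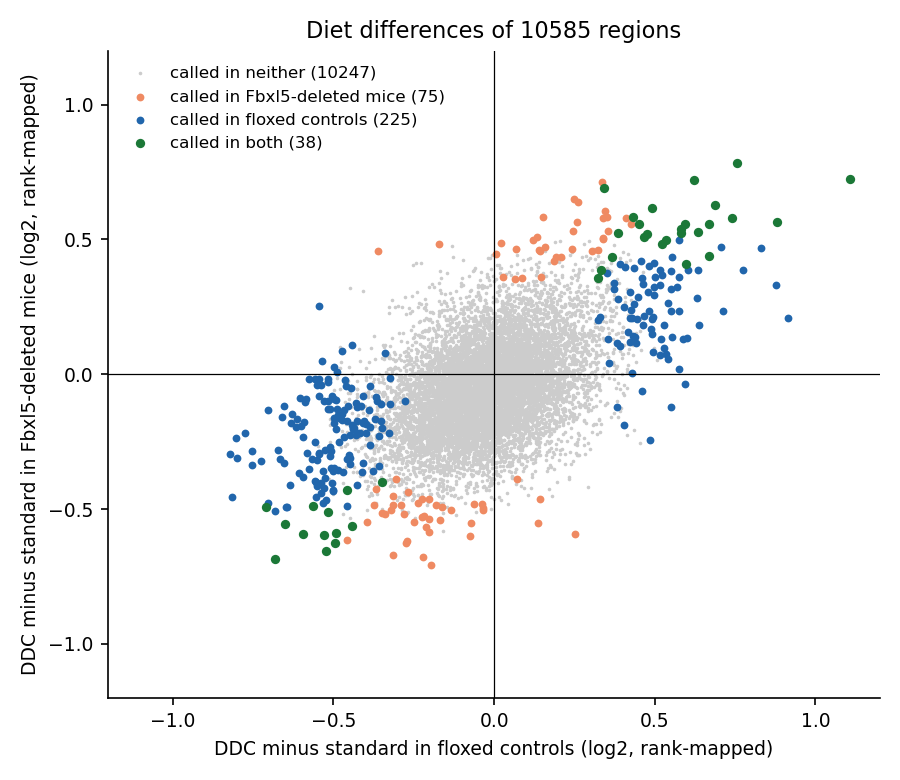
Diet difference (DDC minus standard, log2, rank-mapped) of each common open region in Fbxl5-deleted mice (y axis) and in floxed controls (x axis). Coloured points were called by limma in one genotype or, in green, in both (38 regions), all of which lie on the same side of 0 on both axes.

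The largest rise lay inside Rora, a nuclear receptor gene of the circadian clock and lipid metabolism (chromosome 9, 69154716 to 69155183). Its fold was 22.3, 23.9 and 26.2 in Fbxl5-deleted mice on DDC, against 11.6, 16.6 and 12.02 in Fbxl5-deleted mice on the standard diet. In floxed controls it was 24.4, 28.8 and 25.4 on DDC, against 13.3, 10.0 and 12.2 on the standard diet. The diets did not overlap in either genotype. The rank-based difference was 0.73 ± 0.13 log2 in Fbxl5-deleted mice and 1.11 ± 0.13 in floxed controls (± SE, limma, adjusted p = 0.0029 and 2.5e-05).

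A like pattern lay in a gene desert 670564 bp from Lrfn5, a neuronal adhesion gene (chromosome 12, 62528492 to 62529086). Its fold was 24.7, 26.8 and 20.5 in Fbxl5-deleted mice on DDC, against 10.4, 18.5 and 10.3 in Fbxl5-deleted mice on the standard diet. In floxed controls it was 23.7, 25.4 and 20.9 on DDC, against 16.4, 11.6 and 12.2 on the standard diet. DDC mice lay above standard-diet mice in both genotypes, by 0.79 ± 0.16 log2 in Fbxl5-deleted mice and 0.76 ± 0.16 in floxed controls (± SE, limma, adjusted p = 0.0101 and 0.0067).

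A further rise lay 29519 bp from Adcy2, an adenylyl cyclase gene (chromosome 13, 69029119 to 69029866). Its fold was 22.0, 25.8 and 21.8 in Fbxl5-deleted mice on DDC, against 12.4, 15.2 and 10.96 in Fbxl5-deleted mice on the standard diet. The difference was 0.72 ± 0.12 log2 there and 0.62 ± 0.12 in floxed controls (± SE, limma, adjusted p = 0.00167 and 0.00258). A region 35503 bp from Mrpl36, which encodes a mitochondrial ribosomal protein (chromosome 13, 73367681 to 73368401), had a difference of 0.21 ± 0.12 log2 in Fbxl5-deleted mice and rose by 0.91 ± 0.12 in floxed controls (± SE, limma, adjusted p = 0.38 and 8.47e-05). Whether these differences were themselves unequal was tested for every region, and none was called. Further rises in floxed controls were 0.88 ± 0.14 near Kcnb2, a potassium channel gene, 0.88 ± 0.14 near Pid1, an insulin signalling gene, and 0.83 ± 0.13 inside Rad54l, a DNA repair gene. These regions had differences of 0.57 ± 0.14, 0.33 ± 0.14 and 0.47 ± 0.13 in Fbxl5-deleted mice (log2 ± SE, limma, adjusted p = 0.0292, 0.207 and 0.0569).

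The largest fall in floxed controls lay inside Capzb, the beta subunit of the actin capping protein (chromosome 4, 139272976 to 139273841). Its fold was 16.8, 16.9 and 15.1 in Fbxl5-deleted mice on DDC, against 14.4, 22.2 and 18.9 in Fbxl5-deleted mice on the standard diet. In floxed controls it was 10.7, 16.5 and 13.7 on DDC, against 21.6, 23.2 and 22.4 on the standard diet. The diets overlapped in Fbxl5-deleted mice and did not in floxed controls, with differences of −0.29 ± 0.12 and −0.82 ± 0.12 log2 (± SE, limma, adjusted p = 0.205 and 0.000261). Other falls in floxed controls, of 0.78 to 0.81 in size, lay 66710 bp from Ube2e1, a ubiquitin-conjugating enzyme gene, 35176 bp from Zfp644, a zinc finger gene, 126374 bp from Mreg, a melanosome transport gene, and 57357 bp from Naaladl2. These regions had differences of −0.46 ± 0.15, −0.24 ± 0.12, −0.31 ± 0.13 and −0.22 ± 0.18 in Fbxl5-deleted mice (log2 ± SE, limma, adjusted p = 0.113, 0.325, 0.227 and 0.567).

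A fall common to both genotypes lay inside Map3k13, a kinase of the JNK pathway (chromosome 16, 21828194 to 21828631). Its fold was 12.3, 14.2 and 14.8 in Fbxl5-deleted mice on DDC, against 20.5, 20.4 and 20.5 in Fbxl5-deleted mice on the standard diet. In floxed controls it was 11.98, 14.9 and 12.9 on DDC, against 21.8, 18.6 and 19.8 on the standard diet. The diets were apart in both, by −0.68 ± 0.13 log2 in each genotype (± SE, limma, adjusted p = 0.00479 in Fbxl5-deleted mice and 0.00236 in floxed controls).

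Of the 5 largest falls in Fbxl5-deleted mice, 2 lay at gene starts. At Phc2, a Polycomb gene (chromosome 4, 128727063 to 128728089), the fold was 11.5, 10.0 and 11.5 in Fbxl5-deleted mice on DDC, against 15.6, 16.5 and 16.6 in Fbxl5-deleted mice on the standard diet. In floxed controls it was 12.6, 13.1 and 14.2 on DDC, against 13.4, 15.6 and 14.3 on the standard diet. The diets were apart in Fbxl5-deleted mice and overlapped in floxed controls, with differences of −0.71 ± 0.14 and −0.20 ± 0.14 log2 (± SE, limma, adjusted p = 0.00568 and 0.448). Sptan1, a spectrin gene (chromosome 2, 29965131 to 29965822), fell in both, by 0.65 ± 0.13 log2 in Fbxl5-deleted mice and by 0.52 ± 0.13 in floxed controls (± SE, limma, adjusted p = 0.00929 and 0.0205). The 5 largest rises and 5 largest falls of each genotype were followed under 20 alternatives, and none turned direction. All 10 in Fbxl5-deleted mice and 4 of 10 in floxed controls missed the threshold in at least 1 of these. In Fbxl5-deleted mice all 10 did so with the library's median fold, which itself differed by diet, as a covariate. That near Lrfn5 did so also without standard-diet library 3 (limma, adjusted p = 0.0548) or DDC library 2 (0.0651). In floxed controls the fall near Naaladl2 did so without standard-diet library 3 (0.0633) or DDC library 2 (0.0871).

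**Figure D5:**
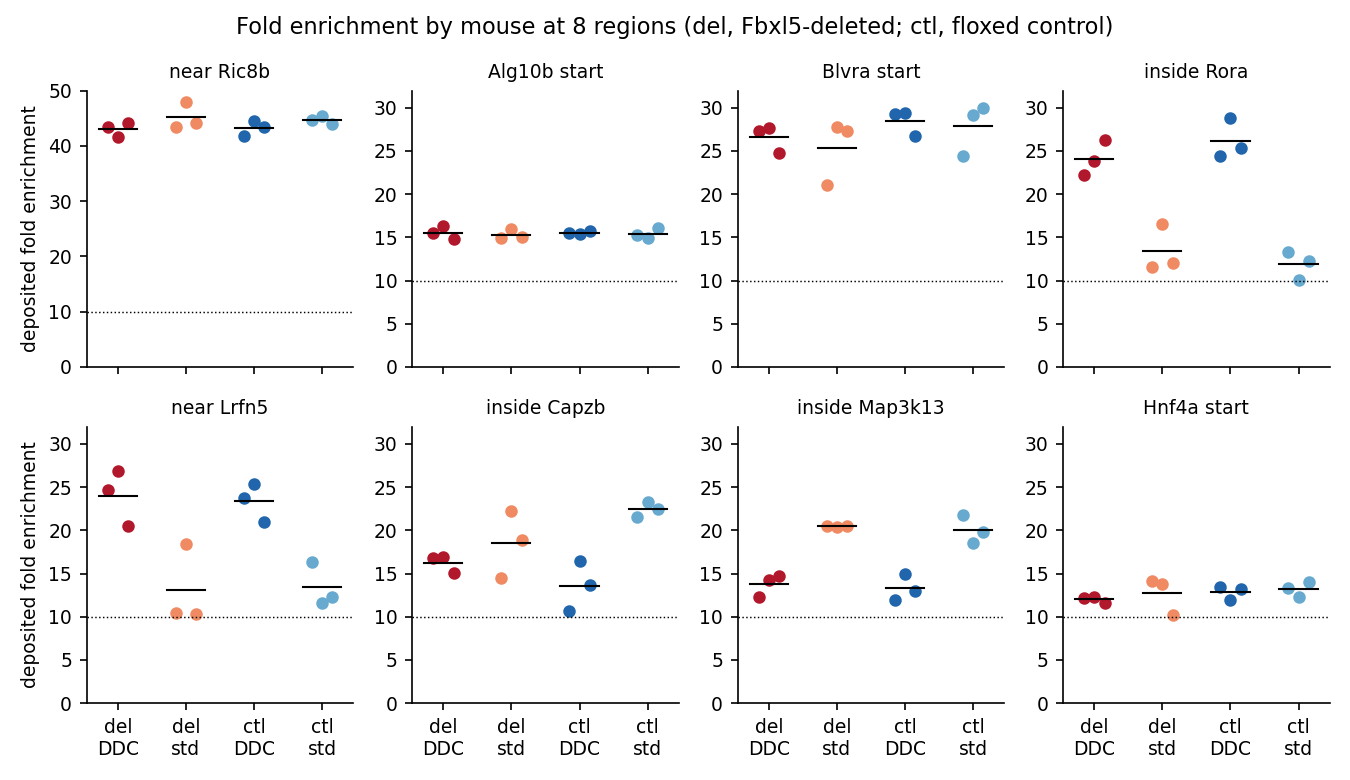
Deposited fold enrichment (y axis) of each mouse at 8 common open regions, in Fbxl5-deleted mice on DDC and on the standard diet and in floxed controls on DDC and on the standard diet; points are mice, black lines group means and the dotted line the minimum of 10. The regions near Ric8b and at the starts of Alg10b, Blvra and Hnf4a overlap between diets, those inside Rora and near Lrfn5 are higher on DDC, and those inside Capzb (floxed controls) and Map3k13 are lower on DDC.

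Of the common open regions within 20 kb of listed genes, no list had more than 1 called by diet in Fbxl5-deleted mice or more than 2 in floxed controls. Set beside 1.07% and 2.48% of all common open regions called, and 3.15% and 7.02% of all regions tested, counts this small say nothing particular about a list, and the regions below are given one by one. The median diet difference of a list's regions ran between −0.15 and −0.01 log2 in Fbxl5-deleted mice and between −0.15 and 0.06 in floxed controls, where the median over all common open regions was −0.06 and −0.02 and that over all regions tested 0.01 and 0.00. Of 24 such regions in the NRF2 pathway, 1 rose in both genotypes, 6081 bp from the start of Prdx1, a peroxidase of the antioxidant response (chromosome 4, 116679083 to 116679518). Its fold was 21.8, 19.3 and 18.4 in Fbxl5-deleted mice on DDC, against 11.4, 13.3 and 12.8 in Fbxl5-deleted mice on the standard diet. In floxed controls it was 19.1, 20.2 and 22.7 on DDC, against 11.7, 15.03 and 11.8 on the standard diet. The diets did not overlap in either genotype, with differences of 0.53 ± 0.13 and 0.64 ± 0.13 log2 (± SE, limma, adjusted p = 0.0265 and 0.00402).

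In the bile acid list 2 of 33 regions fell in floxed controls. Of these, 1 lay inside Abcb4, and 1 lay 6629 bp from Abcb1b, its nearest protein-coding gene, and 19839 bp from the start of Abcb4. The one inside Abcb4 (chromosome 5, 8947444 to 8947811) had 18.04, 15.2 and 15.7 in Fbxl5-deleted mice on DDC, against 11.3, 17.35 and 16.9 on the standard diet. It had 14.4, 14.98 and 15.7 in floxed controls on DDC, against 19.6, 19.97 and 22.6 on the standard diet. The difference was −0.02 ± 0.12 log2 in Fbxl5-deleted mice and −0.54 ± 0.12 in floxed controls, where the diets did not overlap (± SE, limma, adjusted p = 0.967 and 0.00785). In the iron list 2 of 28 fell in floxed controls, inside Slc25a37, which encodes the mitochondrial iron importer mitoferrin (−0.53 ± 0.15, limma, adjusted p = 0.0331), and at the start of the histone gene H4c3 near Hfe (−0.42 ± 0.13, limma, adjusted p = 0.0452). Their differences in Fbxl5-deleted mice were −0.39 ± 0.15 and −0.41 ± 0.13 (limma, adjusted p = 0.168 and 0.0821). Of 22 regions of heme genes and 22 of the hepatocyte identity factors, 0 were called by diet in either genotype, which at the shares above is not a result about these lists.

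Among 18 regions of hepatocyte products, 1 near Fgg, a fibrinogen gene, rose in floxed controls (0.52 ± 0.13) and 1 between Alb and Afp, the albumin and alpha-fetoprotein genes, fell (−0.60 ± 0.14; limma, adjusted p = 0.0232 and 0.0103). Their differences in Fbxl5-deleted mice were 0.38 ± 0.13 and −0.38 ± 0.14 (limma, adjusted p = 0.132 and 0.141). The region between Alb and Afp had 14.5, 13.0 and 13.8 in floxed controls on DDC, against 16.3, 23.3 and 19.9 on the standard diet. The region 12690 bp from Actb, the beta-actin gene, rose by 0.44 ± 0.12 in Fbxl5-deleted mice and 0.67 ± 0.12 in floxed controls (limma, adjusted p = 0.0435 and 0.00125). A region near Gusb, another reference gene, had differences of −0.18 ± 0.14 and −0.63 ± 0.14 (limma, adjusted p = 0.539 and 0.00819). Further calls in floxed controls lay near Rps28 (−0.50 ± 0.14), Psmb7 (−0.41 ± 0.11), Ndufs8 (−0.50 ± 0.14), Snrnp200 (0.36 ± 0.11) and Arid1a (0.49 ± 0.13). In Fbxl5-deleted mice a region near Cox5b was called (−0.52 ± 0.13). At Muc1, a mucin of bile duct cells, the region had a difference of −0.19 ± 0.11 in Fbxl5-deleted mice and rose by 0.40 ± 0.11 in floxed controls (limma, adjusted p = 0.416 and 0.0368). Of 13 regions of endothelial genes, those inside Pecam1 and Stab2 fell in floxed controls (−0.56 ± 0.15 and −0.46 ± 0.13, limma, adjusted p = 0.0331 and 0.0321). Their differences in Fbxl5-deleted mice were −0.45 ± 0.15 and −0.02 ± 0.13 (limma, adjusted p = 0.121 and 0.957). The part of other cell types in these differences was not tested.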

How the data were processed

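ATAC-seq peak lists of 12 libraries were used, 1 per mouse. Per the submitters' processing notes, MACS2, Bowtie2, fastp, Picard, SAMtools, deepTools and bedtools were used with the mouse build mm10. Not given in the sources used here were their versions, settings and order, and whether reads were shifted for the transposase. The authors called peaks per sample. The deposited fold enrichment is a ratio of peak height to local background; the deposited −log10 p and −log10 q are the caller's, with a smallest −log10 p of 1.3 (a p-value of 0.05), and the deposited score stayed out of every step. Read counts are absent from the lists, so depth is unknown.

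Lines of 1 peak were joined at their highest fold, chromosomes 1 to 19 and X were kept, and the 137000 strongest peaks per library were merged at 1 bp overlap. Ranks were mapped to the mean log2 distribution, with absent regions at the lowest value, 1.28. The few strongest regions of a library shared the highest value. limma 3.58.1 (R 4.3.3; trend and robust settings) was fitted to all 12 libraries with 4 group means, and checked on simulated data. Gene starts, strands and sequences came from the RefSeq promoter windows (GRCm38.p6), which were used for 17274 protein-coding genes and none on chromosome 18; spans came from the RefSeq gene table. Exons were not known here. A list gene was matched by symbol or synonym. Regions were named by fixed ranks: the strongest, the steadiest and most variable, those at the threshold, the largest called changes, the 3 strongest per gene list and list regions that were called. Members, gene lists and motifs were chosen with earlier results of these data known. Python 3.11.15, numpy 2.4.6, pandas 2.3.3 and matplotlib 3.10.9 were used.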

Additional observations from a re-analysis of the deposited data

How the results depend on the processing

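The number of common open regions was 17622 with a minimum fold of 8, 5872 with 12 and 6888 with 50% reciprocal overlap, and 10598 to 13274 leaving out 1 library. The share at gene starts was 36.1%, 39.5% and 41.2% under the first 3, and 35.4% to 38.6% leaving out 1 library. Keeping 100000 peaks, or a −log10 q of at least 5, gave 10584 regions each.

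Common open regions called by diet in Fbxl5-deleted mice numbered 27 with no filter on lists, 61 with reciprocal overlap, 255 and 39 with minimum folds of 8 and 12, 1 with the library's median fold as covariate, 9 without Fbxl5-deleted standard libraries 1 and 3 (the remaining library is assumed to vary like the other groups), and 37 to 122 leaving out 1 library. In floxed controls they numbered 110 without rank mapping, 81 with no filter, 147 with reciprocal overlap, 538 and 109 with minimum folds of 8 and 12, 111 with the covariate, and 102 to 289 leaving out 1 library. In all these settings the share of common open regions called by diet (0.00945% to 1.45% in Fbxl5-deleted mice and 0.765% to 3.05% in floxed controls) was under that of all regions tested in the same setting. With reciprocal overlap, limma called 9 of the 10375 original common open regions still tested by genotype on the standard diet, 8 on DDC and 13 for the difference of the diet effects (0.0914%, 0.192% and 0.0618% of all regions tested), a setting in which a library whose peak misses the overlap takes the lowest value; leaving out 1 library gave 0 to 1 on the standard diet and 0 in the other 2. The covariate was mostly higher on DDC, so counts with it cannot tell diet apart from the library's median fold. For the remaining moves the cause was not tested. Of the 10 named changes per genotype, each under 20 alternatives, 177 of 200 values in Fbxl5-deleted mice and 192 of 200 in floxed controls stayed past the threshold, and 0 reversed; past it in all 20 were 0 of 10 and 6 of 10.

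Replicate numbers did not pair the mice: deviations of same-numbered libraries correlated at −0.024 to 0.056, and others at −0.044 to 0.027. With the replicate number as a block, 112 common open regions were called by diet in Fbxl5-deleted mice, 253 in floxed controls and 0 in the other 3 comparisons. With no read counts, the precision of a single fold is unknown.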
